A study of Mus musculus with 6 samples.

Results

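The genes described here make aspartate, move it between compartments, and use it to build asparagine, argininosuccinate and pyrimidines. They were a fixed list of 10 rows among the 23282 rows of a table of raw read counts, and all 10 were found. They comprise the aspartate transaminases Got1 and Got2, the carriers Slc25a12, Slc25a13 and Slc1a3, the synthetases Asns and Ass1, and the pyrimidine enzymes Cad, Dhodh and Umps. RNA was measured in alveolar macrophages, the resident phagocytes of the air spaces, sorted from mouse lung as cells positive for CD45, CD11c, F4/80 and SiglecF and negative for CD11b. The Sdha-KO mice (3 libraries) carried floxed Sdha together with LysM-Cre, a Cre driver active in myeloid cells generally, and the others were wildtype (3 libraries). The labels number each library 1 to 3 as replicate and again as batch, so each batch holds 1 library of each genotype. Whether a library came from 1 mouse or a pool, the ages and sexes of the mice, and whether the wildtype mice carried floxed alleles or Cre, are not stated in the labels. P-values therefore reflect only how much these libraries vary, and part of that may be technical.

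Sdha encodes the flavoprotein of succinate dehydrogenase, which oxidises succinate to fumarate in the tricarboxylic acid cycle and passes the electrons to ubiquinone. Later steps of that cycle give oxaloacetate, which the transaminases convert to aspartate. Cytosolic aspartate supplies asparagine, the arginine cycle, purines and the ring of the pyrimidines, and dihydroorotate dehydrogenase, like succinate dehydrogenase, hands its electrons to ubiquinone. Cultured cells that lack succinate dehydrogenase are known to rely on carboxylation of pyruvate for aspartate.

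Library totals ranged from 5400160 to 8472907 counts in Sdha-KO and from 5813531 to 8239600 counts in wildtype. The libraries of batch 1 stood apart. Among 3447 genes that reached 100 counts in all 4 libraries of the other batches, 612 had no count in Sdha-KO replicate 1 and 136 had none in wildtype replicate 1. A count of 0 allows up to 3 counts, or 0.250 to 0.666 CPM (counts scaled to library size), a limit for counting error alone. Sdha had 26.1, 21.0 and 22.8 CPM in Sdha-KO replicates 1 to 3, against 56.0, 65.5 and 72.2 CPM in wildtype replicates 1 to 3. All 3 Sdha-KO libraries lay below the wildtype ones, as for 9.27% of all tested genes. The log2 fold change of Sdha was -1.47 (SE 0.82, unadjusted p = 0.0976 by edgeR's quasi-likelihood test), and it was not called. The 3' reads may fall outside the deleted exons, so this is a limited check. The 12 alveolar macrophage markers summed to 6058 to 7935 CPM in Sdha-KO and 7207 to 8554 CPM in wildtype libraries. Chil3 alone gave 3507 to 5385 CPM of these sums in Sdha-KO and 4252 to 5424 CPM in wildtype. Of the 12, Siglecf, Krt79, Ear2 and Cidec were lower in Sdha-KO without overlap (4 genes, against 9.27% of all tested genes). Car4 and Fabp5 were higher without overlap (2 genes, against 5.04%), and none of the 12 was called. The marker Siglecf, used in the sort, had no count in Sdha-KO replicate 1. Markers of other cells in the same units were 164 to 218 in Sdha-KO and 73.8 to 107 in wildtype for neutrophils (6 genes in the table), and 106 to 575 against 144 to 336 for monocytes and interstitial macrophages (9 genes). For conventional dendritic cells (9 genes) they were 16.1 to 199.6 against 58.1 to 132, and for lung epithelium (8 genes) 118 to 713 against 229 to 414. In erythroid cells (5 genes) they were 87.0 to 388 against 161 to 249, and endothelial sums (5 genes) were 13.9 to 34.3 against 23.6 to 36.9. Lymphocyte sums (8 genes) were 0 to 33.4 against 0 to 32.6, and those of eosinophils (4 genes) 0 to 0.149 against 0 to 0.222, with 2 of the 4 eosinophil genes, Epx and Prg2, at 0 in all 6 libraries. Neutrophil sums did not overlap between genotypes. All 8 tested markers of monocytes and interstitial macrophages had positive log2 fold changes (median 2.03), none was called, and Ccr2, at 58.3 ± 27.0 CPM in Sdha-KO and 13.3 ± 8.07 CPM in wildtype libraries (SD, n = 3), did not overlap. Of this list, the untested Ly6c2 had no count in Sdha-KO and 0, 0 and 22 counts in wildtype replicates 1 to 3. Within batch 1, Cx3cr1, Itgam and Cd14 were lower in Sdha-KO, Ccr2 and C1qa were higher, and the rest were at 0 in both libraries. The part of these cells in the differences below was not tested.

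Asparagine synthetase, Asns, is a known target of the transcription factor ATF4, which acts when amino acids are short or mitochondria are stressed. Its promoter is shown because Asns was the gene of the list that stood furthest apart between genotypes. In the human gene this response is known to run through a C/EBP-ATF response element followed by the short element GTTACA. The windows of RefSeq (GRCm38.p6) from 250 bases before to 50 bases after each gene's start were searched on both strands for TGATGNAA. A window was held for 9 of the 10 genes, all but Dhodh, and 2 of the 9 had a match, Asns and Got1. Of all 32851 windows 1304 had one (3.97%). Of 16 genes with a window in the list of the ATF4 pathway, 3 had one, Atf3, Chac1 and Trib3, the last after its start. Sites of 30 bases from 4 of these promoters are printed on the strand that reads TGATGNAA, with the motif, and GTTACA where it follows, in capitals.
Asns: caTGATGAAActtcccgcacgcGTTACAga
Got1: taTGATGCAAccaatgcaatgtacaccgga
Atf3: ggTGATGCAAgtgcgagaaggggcggtcac
Chac1: agTGATGCAAcggcagggaaggtttcccca
The Asns site lies at chr6:7693205-7693234 on the minus strand, which is the strand of the gene, with TGATGAAA from -23 to -16 relative to the RefSeq start. GENCODE M21 places the outermost start of Asns further upstream, at 7693254, so that the site is transcribed in its longest model. GTTACA at this spacing from TGATGNAA was found in 1 of the 32851 windows (0.00304%), that of Asns. Since the pair of elements is known from this gene in human, its match in Asns is no independent result. The Got1 site lies at chr19:43524698-43524727 on the plus strand, opposite to the gene, from -102 to -95. The Atf3 site is at chr1:191183434-191183463 (plus strand, opposite to the gene) and the Chac1 site at chr2:119351029-119351058 (minus strand, opposite to the gene). A match describes these letters and does not show binding.

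Asns RNA was near the detection limit in wildtype macrophages and clearly present in every Sdha-KO library. Asns (chromosome 6, 7675169 to 7693254, minus strand, mm10) makes asparagine from aspartate and glutamine. It had 217, 57 and 139 counts in Sdha-KO replicates 1 to 3, against 0, 3 and 5 counts in wildtype replicates 1 to 3. After scaling by library total and TMM factor, the values were 18.1, 10.6 and 20.7 CPM in Sdha-KO and 0, 0.666 and 0.637 CPM in wildtype libraries. The lowest Sdha-KO library was far above the highest wildtype library, and the direction held within each of the 3 batches. The 217 counts of Sdha-KO replicate 1 come from the library that lacked the most of the genes described above, so they carry less weight. The ratio of summed counts per summed library size was 44.0 in Sdha-KO over wildtype, with an exact 95% interval of 22.1 to 103 that covers counting error only. The wildtype sum was 8 counts, so the size of the ratio is loosely fixed.

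Tested over the whole table, the difference in Asns missed the threshold. Its log2 fold change was 5.21 (SE 2.46, unadjusted p = 0.0557, Benjamini-Hochberg adjusted p = 1.00 by edgeR's quasi-likelihood test). That test called 5 of 9963 tested genes, which is 0.0502%, and the spread between libraries was wide, with a biological coefficient of variation of 1.40. The call of Asns depended on the tool and design. With the replicate number as a block, its adjusted p was 0.966 in edgeR and 0.0492 in DESeq2, which called 72 genes in that design (0.723%). Without the block DESeq2 gave an adjusted p of 0.351, and limma-voom 0.483. Without both batch 1 libraries the log2 fold change was 4.56 (SE 1.12, unadjusted p = 0.00387, edgeR adjusted p = 0.245). Those 4 libraries also differ in sex-linked transcripts between genotypes. Xist had 498 and 822 counts in Sdha-KO replicates 2 and 3, against 4608 and 6055 in wildtype replicates 2 and 3, and the Y-linked Ddx3y had 354 and 432 against 0 and 143. Sdha-KO replicates 2 and 3 and wildtype replicate 3 had counts of both transcripts, as a mix of cells of both sexes would give. Genotype and sex cannot be told apart in those 4 libraries. In batch 1 these transcripts ran the other way, with 2683 Xist and 0 Ddx3y counts in Sdha-KO replicate 1, against 0 and 222 in wildtype replicate 1. Asns had 217 and 0 counts in these 2 libraries, which lacked 612 and 136 of the 3447 genes described above. The part of sex in the Asns difference was not tested.

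**Figure D1:**
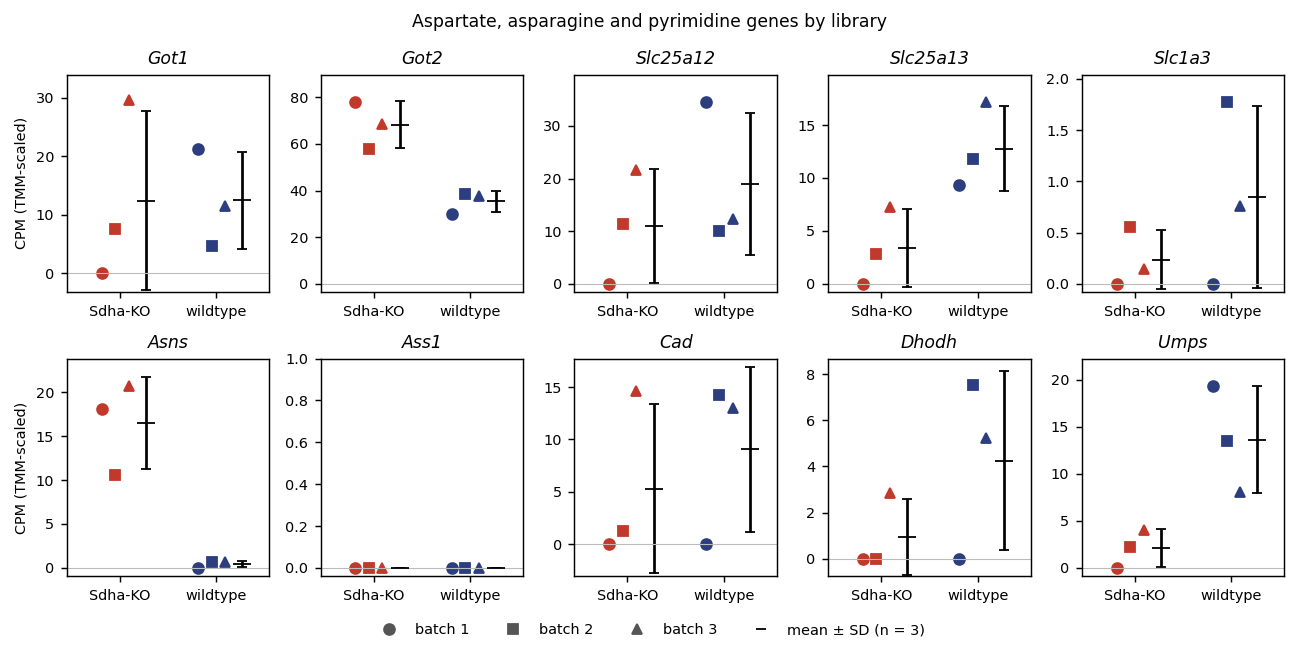
CPM scaled by TMM composition factors (vertical axes, a separate linear scale per gene) in the 3 Sdha-KO and 3 wildtype libraries, with symbols for the batches and the mean ± SD beside them. Asns lies between 10.6 and 20.7 CPM in Sdha-KO and at or below 0.666 CPM in wildtype, Got2 is higher in all Sdha-KO libraries, and 6 of the 8 tested genes are at 0 in Sdha-KO replicate 1.

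Got1 and Got2 encode the cytosolic and the mitochondrial aspartate transaminase, which interconvert aspartate and oxaloacetate. Got2 (chromosome 8, 95864134 to 95888547, minus strand) had 78.0, 57.8 and 68.6 CPM in Sdha-KO replicates 1 to 3, against 30.0, 38.4 and 37.6 CPM in wildtype replicates 1 to 3. Every Sdha-KO library lay above every wildtype library. The means were 68.1 ± 10.1 CPM in Sdha-KO and 35.3 ± 4.61 CPM in wildtype libraries (SD, n = 3 each), a fitted ratio of 1.93 for Sdha-KO over wildtype. The test across all genes was not passed (log2 fold change 0.95, SE 0.70, edgeR adjusted p = 1.00), and without both batch 1 libraries the log2 fold change was 0.75 (edgeR adjusted p = 0.521). An exon of Got2 overlaps that of Gm45760 on the other strand, and the use of strand in counting is not given, so its count is uncertain.

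Got1 (chromosome 19, 43499752 to 43524605, minus strand) had 0, 7.62 and 29.5 CPM in Sdha-KO replicates 1 to 3, against 21.2, 4.66 and 11.5 CPM in wildtype replicates 1 to 3. The genotypes overlapped fully with 6 libraries (log2 fold change -0.0088, SE 2.17, edgeR adjusted p = 1.00). The direction turned with the batch 1 libraries: without both of them the log2 fold change was 1.21 (edgeR adjusted p = 0.743), and Got1 was higher in Sdha-KO within batch 2 by 0.68 and within batch 3 by 1.34 on the log2 scale. In batch 1 it had 0 counts in Sdha-KO and 173 in wildtype.

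The aspartate-glutamate carriers of the inner mitochondrial membrane export aspartate in exchange for glutamate, and Slc1a3 takes up both amino acids at the cell surface. Slc25a13 (citrin; chromosome 6, 6041218 to 6217173, minus strand) had 0, 2.79 and 7.30 CPM in Sdha-KO replicates 1 to 3, against 9.31, 11.8 and 17.2 CPM in wildtype replicates 1 to 3. All Sdha-KO libraries lay below the wildtype ones. Its log2 fold change was -1.92 (SE 2.28, edgeR adjusted p = 1.00), and -1.50 without both batch 1 libraries (edgeR adjusted p = 0.660). Slc25a12 (aralar; chromosome 2, 71271063 to 71367749, minus strand) did not separate the genotypes. It had 0, 11.3 and 21.6 CPM in Sdha-KO, against 34.6, 9.99 and 12.4 CPM in wildtype replicates 1 to 3. Its log2 fold change was -0.79 with 6 libraries (SE 2.08, edgeR adjusted p = 1.00) and 0.57 without both batch 1 libraries (edgeR adjusted p = 0.896), so its sign rested on that batch. Slc1a3 (chromosome 15, 8634124 to 8710764, minus strand) was barely detected and did not pass the filter on low counts. It had 0, 3 and 1 counts in Sdha-KO replicates 1 to 3, against 0, 8 and 6 counts in wildtype replicates 1 to 3.

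Argininosuccinate synthetase, Ass1, joins aspartate to citrulline in the arginine cycle. Ass1 (chromosome 2, 31470207 to 31520672, plus strand) had no count in any of the 6 libraries. The limit that this allows is 0.250 to 0.558 CPM in Sdha-KO and 0.368 to 0.666 CPM in wildtype libraries.

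The 3 genes of pyrimidine synthesis had lower mean levels in Sdha-KO than in wildtype libraries, but only Umps separated the genotypes in all 6. Cad encodes the enzyme of the first 3 steps, in which aspartate enters the ring, Dhodh the mitochondrial dehydrogenase, and Umps the enzyme of the last steps to uridine monophosphate. Umps (chromosome 16, 33954782 to 33967038, minus strand) had 0, 2.23 and 4.02 CPM in Sdha-KO replicates 1 to 3, against 19.4, 13.5 and 8.02 CPM in wildtype replicates 1 to 3. The highest Sdha-KO value was below the lowest wildtype value, and the order held within each batch. The means were 2.09 ± 2.02 CPM in Sdha-KO and 13.6 ± 5.67 CPM in wildtype libraries (SD, n = 3 each). The difference did not pass (log2 fold change -2.70, SE 2.33, edgeR adjusted p = 1.00), and without both batch 1 libraries it was -1.76 (SE 1.12, edgeR adjusted p = 0.693). Exons of Umps overlap those of Gm15829 on the other strand, so its count is uncertain.

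Dhodh (chromosome 8, 109591343 to 109608673, minus strand) had 0, 0 and 2.83 CPM in Sdha-KO replicates 1 to 3, against 0, 7.55 and 5.22 CPM in wildtype replicates 1 to 3. Both batch 1 libraries were at 0, and in batches 2 and 3 the Sdha-KO libraries were the lower ones. Its 19 counts in Sdha-KO came from 1 library, and its log2 fold change was -2.15 (SE 2.88, edgeR adjusted p = 1.00). Without Sdha-KO replicate 3 the log2 fold change was -8.02 (edgeR adjusted p = 0.812), a size set by the prior count since no Sdha-KO count is left. Cad (chromosome 5, 31054780 to 31078479, plus strand) had 0, 1.30 and 14.6 CPM in Sdha-KO replicates 1 to 3, against 0, 14.2 and 13.0 CPM in wildtype replicates 1 to 3. Only Sdha-KO replicate 2 was low among the libraries of batches 2 and 3, and the log2 fold change was -0.77 (SE 2.59, edgeR adjusted p = 1.00). Leaving out Sdha-KO replicate 3 gave -3.80, and leaving out Sdha-KO replicate 1 gave -0.18. RNA was taken from sorted populations in bulk, so fewer cells that express a gene and less RNA per cell cannot be told apart.

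**Figure D2:**
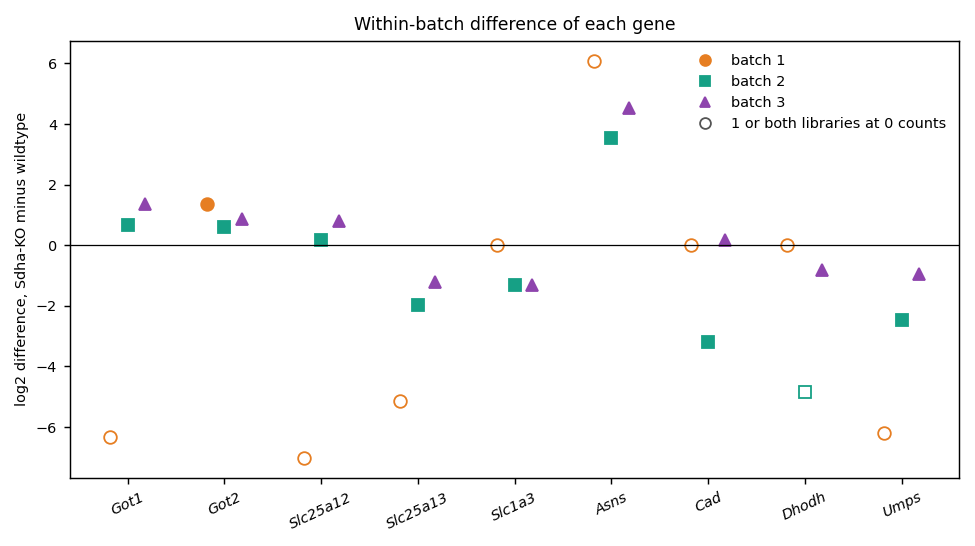
Difference of log2 CPM (prior count of 2), Sdha-KO minus wildtype, within each of the 3 batches for the 9 genes with counts, with open symbols where 1 or both libraries had no count. Asns and Got2 are above 0 in all 3 batches, Slc25a13 and Umps below 0 in all 3, and Got1 and Slc25a12 change sign between batch 1 and the others.

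Of the 10 genes, 8 passed the filter on low counts, all but Slc1a3 and Ass1. None of the 8 passed edgeR's test over all genes, where 5 of 9963 did (0.0502%), and none had an unadjusted p under 0.05 (2.64% of all tested genes). DESeq2, which called 0.211% of the table, and limma-voom called none of them either, and DESeq2 with the replicate block called 1, Asns. The log2 fold change was positive in 2 and negative in 6, with a median of -0.78, against 45% positive and a median of -0.13 over all tested genes. Sdha-KO lay above wildtype without overlap in 2 of the 8, Got2 and Asns (5.04% of all tested genes), and below in 2, Slc25a13 and Umps (9.27%). Counts were 0 in Sdha-KO replicate 1 for 6 of the 8, as for 48.9% of all tested genes, and in wildtype replicate 1 for 3. Without both batch 1 libraries 4 were positive and 4 negative, with a median of -0.093, against -0.017 over all genes. In those 4 libraries Got2 and Asns were above without overlap (20.1% of all tested genes) and Slc25a13, Dhodh and Umps below (23.8%). In both fits Asns passed the filter through its Sdha-KO libraries alone. Its positive sign and its place without overlap therefore followed from the filter and add nothing to these tallies. No member was called there (27 of 10757 genes were, 0.251%).

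**Figure D3:**
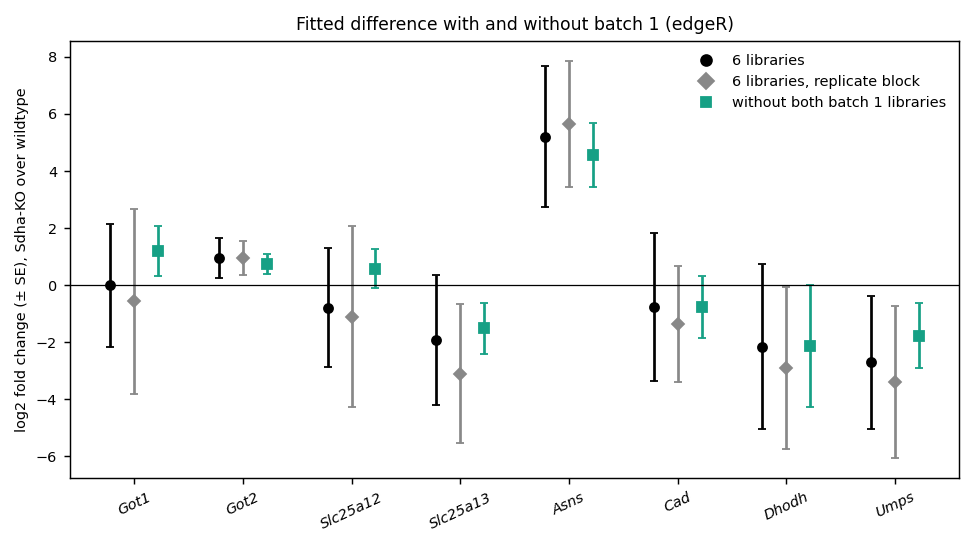
Fitted log2 fold change of Sdha-KO over wildtype with its SE (edgeR) for the 8 tested genes, with 6 libraries, with 6 libraries and the replicate block, and without both batch 1 libraries. Asns is at 5.21, 5.65 and 4.56 in these fits and Got2 at 0.95, 0.95 and 0.75, while Got1 and Slc25a12 are above 0 only without batch 1.

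Genes of the surrounding pathways were read from the same fit in 9 lists, and none of their members passed the test over all genes with 6 libraries. Around aspartate supply, 5 of 8 tested members of the malate-aspartate shuttle and precursor list were positive and 3 negative (median log2 fold change 0.049). Without batch 1 the balance turned, with 4 of 9 positive and a median of -0.22. Ucp2, whose product exports aspartate and other 4-carbon acids from mitochondria, had 149.6, 168 and 203 CPM in Sdha-KO replicates 1 to 3, against 397, 248 and 352 CPM in wildtype replicates 1 to 3. The genotypes did not overlap (log2 fold change -0.94, SE 0.35, unadjusted p = 0.0206, edgeR adjusted p = 1.00), and exons of Ucp2 overlap those of Dnajb13. Glul, glutamine synthetase, averaged 166 ± 5.14 CPM in Sdha-KO and 158 ± 58.1 CPM in wildtype libraries (SD, n = 3). The pyruvate carboxylase gene, Pcx, named after its values were seen, had 0, 2 and 11 counts in Sdha-KO replicates 1 to 3, against 0, 1 and 0 in wildtype replicates 1 to 3.

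Few of the 7 transporter genes listed beside Slc1a3, the rest of the Slc1 family and Slc7a11, were detected. Only 2 of 7 were tested, both negative (median -1.06): the glutamine carrier Slc1a5, with 9.99 ± 14.0 CPM in Sdha-KO and 30.2 ± 8.33 CPM in wildtype libraries, and the cystine-glutamate exchanger Slc7a11, with 23.4 ± 24.8 and 33.5 ± 42.2 CPM (SD, n = 3). The sign of Slc7a11 rested on batch 1. Without that batch 2 of 3 tested genes were positive (median 1.86), and Slc7a11 was at 1.86 (log2 fold change, SE 0.97, edgeR adjusted p = 0.578). The gene added there was Slc1a2, named after its values were seen, which did not pass the filter with 6 libraries. It had 0, 99 and 41 counts in Sdha-KO replicates 1 to 3, against 0, 2 and 6 in wildtype replicates 1 to 3. Without batch 1 its log2 fold change was 4.29 (SE 1.39, edgeR adjusted p = 0.371). In the list of asparagine and aspartate use, 2 of 4 tested members were positive and 2 negative (median -1.17), and 3 of 4 were positive without batch 1 (median 0.46). The cytosolic asparaginyl-tRNA synthetase gene Nars averaged 118 ± 45.2 CPM in Sdha-KO and 79.1 ± 24.9 CPM in wildtype, and its mitochondrial counterpart Nars2 2.89 ± 2.52 and 21.8 ± 32.1 CPM (SD, n = 3). Most of the Nars2 counts were in wildtype replicate 1, which had 480, and its log2 fold change was -2.91 with 6 libraries and 0.42 without batch 1. Exons of Nars2 overlap those of C230038L03Rik.

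In the arginine cycle 5 of 6 tested members were positive (median 1.46, and 1.39 without batch 1). Slc7a2, a carrier of arginine and other cationic amino acids, had 437, 575 and 438 CPM in Sdha-KO replicates 1 to 3, against 164, 192 and 185 CPM in wildtype replicates 1 to 3. All Sdha-KO libraries were above the wildtype ones, with a log2 fold change of 1.42 (SE 0.32, unadjusted p = 0.000738, edgeR adjusted p = 0.387). Its edgeR adjusted p was 0.0782 without both batch 1 libraries, and 0.000199 when the block was added to that fit, which called 324 genes (3.01%). The blocked fit leaves 1 degree of freedom per gene for the spread between libraries, and genotype and sex cannot be told apart in it. Exons of Slc7a2 overlap those of Gm26584, so the count is uncertain. Arg2, the mitochondrial arginase, averaged 50.3 ± 21.4 CPM in Sdha-KO and 34.9 ± 32.4 CPM in wildtype (SD, n = 3; its exons overlap those of Vti1b).

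Other pyrimidine genes also had mostly negative log2 fold changes, with no member called. Over all tested genes 45% were positive with 6 libraries (median -0.13) and 49.3% without batch 1. In pyrimidine salvage and breakdown all 7 tested members were negative (median -1.11 with 6 libraries, and -1.02 with all 7 negative without batch 1), while 8 of the 15 in the list were not tested. The 5'-nucleotidase gene Nt5c3 averaged 14.6 ± 17.7 CPM in Sdha-KO and 32.7 ± 16.6 CPM in wildtype, and the uridine-cytidine kinase-like gene Uckl1, whose exons overlap those of Zfp512b, 7.94 ± 8.92 and 17.2 ± 13.2 CPM (SD, n = 3). In CTP and thymidylate synthesis 3 of 11 were positive and 8 negative (median -0.87), and without batch 1 5 of 12 were positive (median -0.70). The library of Sdha-KO replicate 1 lacked 6 of the 7 salvage genes and 7 of the 11 synthesis genes, against 48.9% of all tested genes. Nme1 and Nme2, nucleoside diphosphate kinase genes that share exons with the readthrough gene Gm20390, averaged 56.5 ± 20.9 and 204 ± 11.0 CPM in Sdha-KO, and 56.0 ± 9.61 and 185 ± 24.0 CPM in wildtype (SD, n = 3). Beside these lists, genes of proliferating cells had log2 fold changes of both signs, of which 3 of 12 were positive and 9 negative (median -0.25, and -0.40 without batch 1). Among them Mki67 had 0, 131 and 93.3 CPM in Sdha-KO, against 91.4, 164 and 124 CPM in wildtype replicates 1 to 3. Top2a had 0, 89.1 and 102 CPM in Sdha-KO, against 163, 137 and 142 CPM in wildtype replicates 1 to 3, without overlap. The part of dividing cells in the pyrimidine values was not tested.

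Purine synthesis, which also consumes aspartate, had 8 of 12 tested members positive (median 0.24), and 6 of 11 without batch 1. Paics, a bifunctional enzyme whose second activity adds aspartate to the growing purine, had 131, 79.6 and 81.4 CPM in Sdha-KO replicates 1 to 3, against 6.62, 44.8 and 33.6 CPM in wildtype replicates 1 to 3. The genotypes did not overlap (log2 fold change 1.78, SE 0.76, unadjusted p = 0.0376, edgeR adjusted p = 1.00), and exons of Paics overlap those of Ppat on the other strand. Atic, the enzyme of the last steps to inosine monophosphate, averaged 44.4 ± 14.4 CPM in Sdha-KO and 29.6 ± 26.1 CPM in wildtype libraries (SD, n = 3).

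Genes of the ATF4 pathway, of which Asns is a known target, were positive in all 17 tested members of 19 in the list (median 0.94, against 45% positive and a median of -0.13 over all tested genes), and in 15 of 17 without batch 1 (median 0.72). None passed edgeR's test with 6 libraries, where Atf4, Atf5 and Mthfd2 had an unadjusted p under 0.05. DESeq2 with the replicate block called Mthfd2 (adjusted p = 0.0492). With edgeR, the block and no batch 1 libraries, the fit that called 3.01% of the table, the adjusted p was 0.0396 for Atf4, 0.00118 for Atf3, 0.00974 for Atf5, 0.0499 for Trib3 and 0.000817 for Mthfd2. No other member of the ATF4 list was called in that fit. Asns was not called there either (edgeR adjusted p = 0.135), nor was any other of the 8 tested genes of the main list. That fit leaves 1 degree of freedom per gene for the spread between libraries, and genotype and sex cannot be told apart in it. Without the block, edgeR's adjusted p there was 0.363 for Atf4, 0.145 for Atf3, 0.245 for Atf5, 0.359 for Trib3 and 0.059 for Mthfd2. Atf4 itself had 529.6, 564 and 497 CPM in Sdha-KO replicates 1 to 3, against 344, 361 and 289.5 CPM in wildtype replicates 1 to 3. Its lowest Sdha-KO library was above its highest wildtype library (log2 fold change 0.68, SE 0.29, unadjusted p = 0.0391, edgeR adjusted p = 1.00). Cebpb, which encodes a partner of ATF4, averaged 407 ± 38.0 CPM in Sdha-KO and 378 ± 77.6 CPM in wildtype (SD, n = 3; its exon overlaps that of Tmem189). Of the genes with a printed site, Atf3 had 212, 620 and 584 CPM in Sdha-KO, against 35.0, 152 and 276 CPM in wildtype replicates 1 to 3, and Chac1 had no count in any library. Atf3 was named for its site, and each Sdha-KO library was above the wildtype library of its batch (log2 fold change 1.61, SE 0.71, edgeR adjusted p = 1.00 with 6 libraries). The secreted stress cytokine gene Gdf15, another gene the ATF4 pathway induces, was among the 5 genes called (log2 fold change 2.99, SE 0.39, edgeR adjusted p = 0.0137). Its adjusted p was 0.402 in the fit with the replicate block, 0.130 with a filter of 10 counts in all libraries of a genotype, and 0.148 when wildtype replicate 1 was left out.

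**Figure D4:**
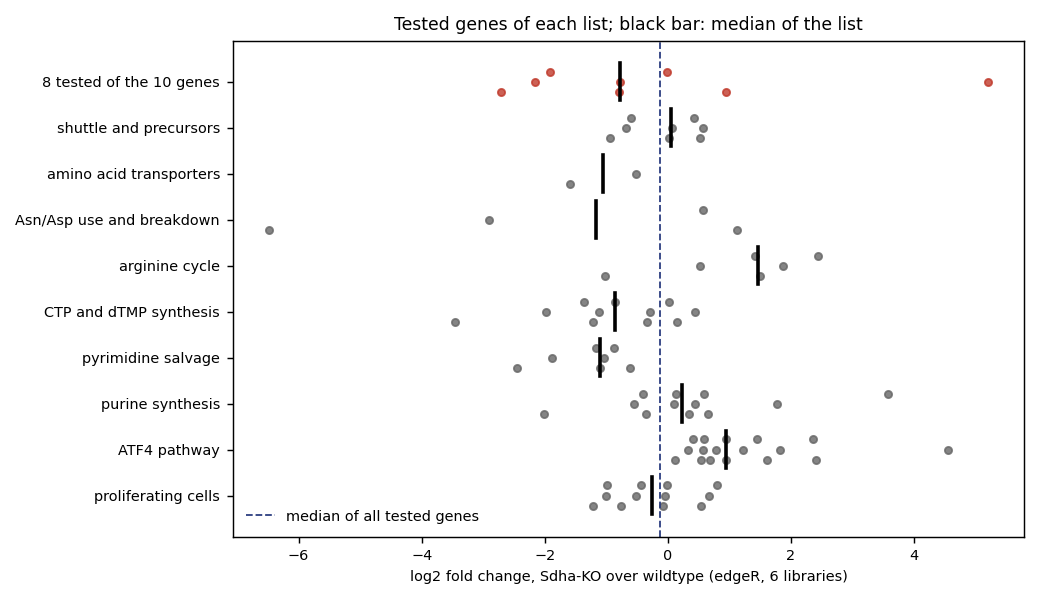
Log2 fold change of Sdha-KO over wildtype (edgeR, 6 libraries) for each tested gene, by list, with the median of the list as a bar and that of all tested genes as a dashed line at -0.13. Asns is the point at 5.21 in the top row, all 7 salvage genes lie below 0, and all 17 genes of the ATF4 pathway lie above 0.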

How the data were processed

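The table the authors deposited holds raw counts of reads by gene symbol for the 6 libraries. Per the labels' protocols, TRIzol RNA went into QuantSeq 3' libraries, primed at the poly(A) tail, so a count does not grow with transcript length. Per the submitters' processing notes, Bowtie2 and bedtools were used on mm10. Their versions, the annotation, the use of strand and the rule for reads with several matches are not stated there. The labels mention no molecular identifiers, so intervals cover counting error only.

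Counts of 9963 genes that passed filterByExpr (minimum count 10) were compared with edgeR 4.0.16 in R 4.3.3 (TMM factors, robust quasi-likelihood F-test, genotype as the only term), with Benjamini-Hochberg adjustment over all tested genes and a threshold of 0.05. An SE is the size of the log2 fold change over the root of F. CPM use library totals scaled by TMM factors. The replicate numbers pair the libraries, since the labels repeat them as batch numbers. The correlation across genes between same-numbered libraries, each centred on its genotype, was 0.155, 0.117 and 0.126. The alternatives were DESeq2 1.42.0, limma-voom (limma 3.58.1), other scalings and filters, the replicate block, and leaving out libraries. The 2 most similar libraries still differed with a chi-square of 36.5 per degree of freedom, so none was a copy.

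Besides the 10 genes and Sdha, Atf4 and Gdf15, the text names each list's called members or else its 2 tested members with the highest mean CPM, and others as stated. Pc was matched to Pcx through RefSeq synonyms. The members and lists were chosen with earlier results of these data known. Positions are those of GENCODE M21 on mm10, and promoter windows those of RefSeq on GRCm38.p6.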

Additional observations from a re-analysis of the deposited data

How the results depend on the processing

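Between 17 alternative settings, the 8 tested genes gave 134 fitted differences, of which 125 kept their direction and their side of the threshold. The call of Asns in DESeq2 with the replicate block (log2 difference 5.74, adjusted p 0.0492) was gained. The others reversed. Got1, at -0.0088 with 6 libraries, was at 0.072 with the stricter filter, 1.21 without both batch 1 libraries, 1.06 when these were also blocked, and ranged from -1.71 to 0.61 when single libraries were left out. Slc25a12, at -0.79, was at 0.57 without both batch 1 libraries, and 0.51 when blocked. The median of the tested genes, at -0.78, was -2.62 in limma-voom and -1.23 with the replicate block, and ranged from -2.47 without Sdha-KO replicate 3 to -0.19 without Sdha-KO replicate 1. The count of genes called over the table, 5 in edgeR, was 9 with library totals alone, 48 with no filter, 0 with the stricter filter, 21 in DESeq2, 20 in limma-voom, 0 with the replicate block, 72 in DESeq2 with the block, 27 without both batch 1 libraries and 324 when that fit had the block. It ranged from 0 (without wildtype replicate 1) to 13 (without wildtype replicate 3) when single libraries were left out. At an unadjusted p under 0.05, edgeR had 263 genes, 296 with the block, 255 with the stricter filter and 340 without wildtype replicate 1. Library totals alone moved the median of all genes from -0.13 to 0.052, and all 9 genes then called were higher. The stricter filter left 6 of the 10 genes. The cause of these changes was not tested. Counts of 0 in batch 1 limit Got1, Slc25a12, Slc25a13, Cad, Dhodh and Umps most.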
